A study of Mus musculus with 10 samples.

Results

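The smooth muscle contractile genes are a set of 10 genes: Acta2, Tagln, Cnn1, Myh11, Actg2, Lmod1, Myl9, Smtn, Des and Mylk. A gene's values came from probe sets annotated to its symbol alone, and the brightest of them on average over all arrays gave its reported value. All 10 were measured, among 18193 genes in all, by 16 probe sets. Expression was measured on 1 array per condition in mESCs (mouse embryonic stem cells, C57BL/6 strain) after 8, 17 or 24 days of differentiation. Day 8 had a control culture and one with KGF (keratinocyte growth factor, an epithelial mitogen also called FGF7). Days 17 and 24 each had a control, KGF, DCI, and KGF with DCI. DCI is taken as the dexamethasone with raised cAMP named in the series title, which places the study in the differentiation of alveolar type II cells of the lung. No condition had a replicate array, so the error of a difference is the standard error (SE) of an additive limma model with terms for day, KGF and DCI, which also holds any departure from additive effects. Values are log2 expression after RMA, in which a difference of 1 is 2-fold, and a gene passed at a Benjamini-Hochberg adjusted p under 0.05 over all 18193 genes. These are cultures of mixed cells, in which fewer cells of a type and less RNA per cell cannot be told apart.

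Smooth muscle contracts when calcium activates myosin light chain kinase, which phosphorylates the regulatory light chain of myosin and lets the myosin motor pull on actin filaments. Many of the genes of this machinery are driven by serum response factor (SRF) with its cofactor myocardin or with the myocardin-related factors, through a promoter sequence called the CArG box. Their proteins fall into filaments (the actins Acta2 and Actg2, the myosin heavy chain Myh11, the intermediate filament protein desmin), the switch (the light chain Myl9 and its kinase Mylk) and actin-binding proteins (Tagln, Cnn1, Smtn, Lmod1). As a set they mark airway and vascular smooth muscle in the lung, but not every member is confined to smooth muscle. For example, Acta2 and Tagln are also made by myofibroblasts and, transiently, by embryonic heart and skeletal muscle, and Des is also a gene of skeletal muscle.

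The promoters of 7 members were held by the RefSeq promoter table (GRCm38.p6), each as 250 bases before and 50 after the gene's start, and 3 of them are printed because they carry the CArG box or belong to the member that moved most with time. Capitals mark matches to the CArG box (a pair of C, a core of A or T, a pair of G, allowing 1 mismatch in the core) and to the MCAT element of muscle promoters (CATTCC), both searched on both strands.
Acta2, chr19:34255324-34255623, minus strand: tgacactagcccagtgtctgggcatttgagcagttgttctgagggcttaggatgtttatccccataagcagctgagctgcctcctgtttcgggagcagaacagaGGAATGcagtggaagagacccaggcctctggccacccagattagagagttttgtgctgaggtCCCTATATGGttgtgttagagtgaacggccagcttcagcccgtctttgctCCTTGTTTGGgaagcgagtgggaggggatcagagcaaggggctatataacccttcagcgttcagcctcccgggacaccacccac
Myl9, chr2:156775214-156775513, plus strand: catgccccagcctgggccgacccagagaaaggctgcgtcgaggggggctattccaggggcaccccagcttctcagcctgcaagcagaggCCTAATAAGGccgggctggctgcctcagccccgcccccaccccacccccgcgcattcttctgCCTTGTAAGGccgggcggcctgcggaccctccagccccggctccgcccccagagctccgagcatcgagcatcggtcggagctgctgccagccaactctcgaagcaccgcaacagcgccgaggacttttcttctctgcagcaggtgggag
Mylk, chr16:34784700-34784999, plus strand: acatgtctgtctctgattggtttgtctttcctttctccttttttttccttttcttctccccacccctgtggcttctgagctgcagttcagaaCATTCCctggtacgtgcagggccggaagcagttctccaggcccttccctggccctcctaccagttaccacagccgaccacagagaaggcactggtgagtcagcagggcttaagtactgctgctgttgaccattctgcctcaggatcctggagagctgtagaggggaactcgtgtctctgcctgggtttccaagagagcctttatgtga
In Myl9 the CArG box was matched without a mismatch from position -161 relative to the start, and with 1 mismatch from -99. Acta2 had matches with 1 mismatch from -84 and -34, and an MCAT element from -146. No CArG box in this sense lay in the windows of Cnn1, Des, Lmod1, Mylk or Smtn. A CArG box without a mismatch was held by 1.63% of all 32851 promoter windows of this length, one with up to 1 mismatch by 9.98%, and the MCAT element by 14.7% of windows and by 4 of the 7 members (Acta2, Lmod1, Mylk and Smtn). The hexamer TGTTCT bound by the glucocorticoid receptor, on either strand, was held by Acta2 and Mylk and by 19% of windows, and in Mylk it shared bases with the MCAT element. The cAMP response element (TGACGTCA) was held by no member's window and by 1.79% of all.

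The array medians lay between 5.23 and 5.31. In the control probe sets for Actb, signal at the 3′ end exceeded that at the 5′ end by 1.05 on the day 8 control array and by 0.46 to 0.62 elsewhere, so differences from day 8 are also given without it. The glucocorticoid-induced genes taken as a check (Fkbp5, Tsc22d3, Per1, Zbtb16 and Klf15) were higher with DCI in 5 of 5 cases, where 7.27% of all genes rose. They were chosen with earlier results of these data known, so this was not a blind check. Of the pluripotency genes that define the starting cells, Pou5f1 read between 3.93 and 6.24 and Nanog between 4.48 and 6.85 over the 10 arrays, where the median of the gene values was 6.67. Markers of other muscle were measured as well. The cardiac troponin gene Tnnt2 read between 10.09 and 10.73 on all arrays, and Myog, a skeletal muscle factor, read at most 4.39 at day 8 and 7.24 or more on every later array. Tnnt2 does not stand for the cardiac genes, of which 6 of 15 rose and 4 fell from day 8 to day 17.

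From day 8 to day 17, 5 of the 10 genes rose and 1 fell, where 21.4% of all genes rose and 21.0% fell. The 4 large rises were in the myosin switch and filaments: the kinase Mylk, the light chain Myl9, the heavy chain Myh11 and the enteric actin Actg2. Acta2, the vascular smooth muscle actin, fell. Below, values stand in the order control and KGF at day 8, and control, KGF, DCI and both treatments at days 17 and 24.

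Mylk, the kinase that starts contraction, read 5.57 and 5.55 at day 8, 9.94, 9.66, 9.72 and 9.67 at day 17, and 10.28, 10.46, 9.93 and 9.82 at day 24. Myl9, the regulatory light chain that it phosphorylates, read 8.58 and 8.71 at day 8, 10.56, 10.74, 10.67 and 10.72 at day 17, and 10.68, 10.91, 10.84 and 10.56 at day 24. For both genes the pair of day 8 arrays lay below all 8 later arrays, whatever the treatment. The share of all genes whose day 8 arrays lie apart from the later ones was not counted, here or for the genes below. The fitted rise to day 17 was 4.34 ± 0.12 for Mylk (20.3-fold, adjusted p = 1.43e-09), the largest of the 10. It was 2.04 ± 0.11 for Myl9 (4.1-fold, adjusted p = 1.06e-07).

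Myh11, the myosin heavy chain made almost only in smooth muscle, read 4.50 and 4.01 at day 8, 6.09, 6.09, 6.09 and 6.37 at day 17, and 6.50, 7.15, 6.57 and 6.85 at day 24. Its levels were low on the scale at day 8, in the range where RMA compresses differences, and higher on every later array. Actg2, the actin of visceral smooth muscle, read 7.23 and 7.06 at day 8, 8.68, 8.87, 8.55 and 8.42 at day 17, and 9.20, 9.37, 9.18 and 9.07 at day 24, again with no overlap between day 8 and the later days. Myh11 rose to day 17 by 1.90 ± 0.21 (3.73-fold, adjusted p = 3.83e-05) and Actg2 by 1.59 ± 0.11 (3.01-fold, adjusted p = 6.78e-07). Without the day 8 control array these 4 rises were 4.32 (Mylk), 1.995 (Myl9), 2.30 (Myh11) and 1.69 (Actg2), and all 4 passed.

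Acta2 went the other way, at 13.05 and 13.002 at day 8, 11.88, 12.26, 11.48 and 11.43 at day 17, and 12.17, 12.12, 11.68 and 11.70 at day 24. Both day 8 arrays were above every later array. The fall to day 17 was -0.996 ± 0.10 (1.99-fold, adjusted p = 1.33e-05), and -0.93 without the day 8 control array. The name of this probe set ends in _s_at, which Affymetrix gives to sets that may match several transcripts, and the actin genes are near-identical in coding sequence, so a share of signal from another actin cannot be told apart. In the same interval the cardiac actin Actc1 rose by 1.002 ± 0.13 and the skeletal actin Acta1 by 2.10 ± 0.32, while the cytoplasmic actin Actg1 fell by 0.20 and Actb stood at 0.02 ± 0.06 and did not pass. Without the day 8 control array Actc1 rose by 0.93 and Acta1 by 2.31, and Actg1 no longer passed (-0.19 ± 0.07, adjusted p = 0.0589).

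Tagln (transgelin, an actin cross-linking protein) read 11.30 and 11.42 at day 8, 11.42, 11.44, 10.64 and 10.48 at day 17, and 11.50, 11.45, 10.89 and 10.95 at day 24. Lmod1 (leiomodin, which nucleates actin filaments in smooth muscle) read 6.58 and 6.46 at day 8, 6.34, 6.34, 5.72 and 5.32 at day 17, and 6.42, 6.32, 5.62 and 5.91 at day 24. The arrays without DCI stayed within 11.30 to 11.50 for Tagln and within 6.32 to 6.58 for Lmod1 over all 3 days. Neither passed from day 8 to day 17 (-0.01 ± 0.10, adjusted p = 0.943, and -0.23 ± 0.16, adjusted p = 0.281). The 95% confidence interval, not adjusted over the genes, was -0.22 to 0.20 for Tagln. Without the day 8 control array Tagln stood at -0.09 and Lmod1 at -0.20, and neither passed.

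Cnn1 (calponin, which binds actin and slows the myosin motor) read 7.79 and 8.41 at day 8, 7.83, 7.83, 7.56 and 7.81 at day 17, and 8.05, 8.28, 8.01 and 7.95 at day 24. Des, the muscle intermediate filament protein, read 8.62 and 9.02 at day 8, 8.42, 9.14, 8.77 and 8.84 at day 17, and 9.26, 9.61, 9.20 and 9.50 at day 24. For both the day 8 KGF array read above the day 8 control. The difference from day 8 to day 17 was -0.26 ± 0.14 for Cnn1 (adjusted p = 0.162) and -0.01 ± 0.12 for Des (adjusted p = 0.955). Without the day 8 control array Cnn1 passed as a fall (-0.52, adjusted p = 0.0145) and Des stood at -0.04, adjusted p = 0.903.

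Smtn (smoothelin, a filament-bound protein of contractile smooth muscle) read 6.49 and 6.84 at day 8, 6.98, 6.995, 7.31 and 7.31 at day 17, and 7.38, 7.53, 7.11 and 7.18 at day 24. It passed from day 8 to day 17 with the smallest rise (0.48 ± 0.17, 1.39-fold, adjusted p = 0.0438). That call was lost when any array except the day 17 KGF array was left out, with values from 0.33 without the day 8 control (adjusted p = 0.308) to 0.62 without the day 8 KGF array (adjusted p = 0.0565).

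**Figure D1:**
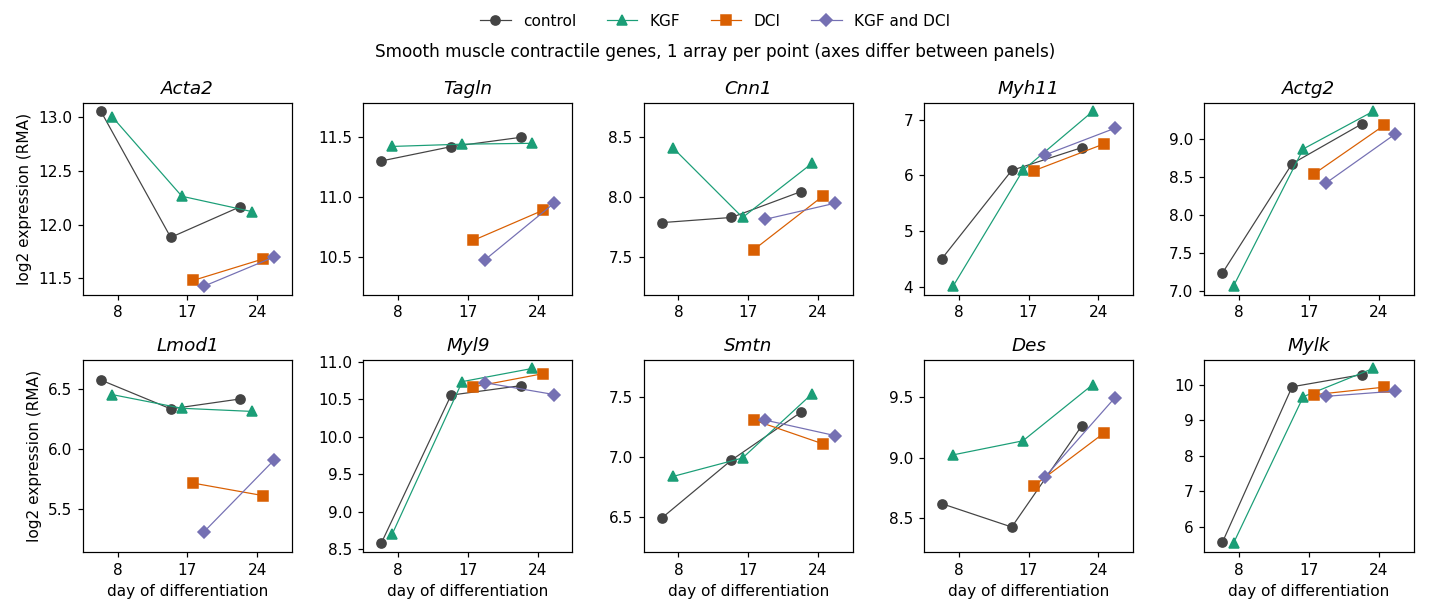
Log2 expression of the 10 smooth muscle contractile genes against day of differentiation, with 1 point per array, lines joining the arrays of a treatment, and a separate axis range in each panel. Mylk, Myl9, Myh11 and Actg2 lie lowest at day 8, Acta2 lies highest there, and in Acta2, Tagln and Lmod1 the arrays with DCI lie below the other arrays.

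From day 17 to day 24, 6 of the 10 genes rose and none fell, where 14.8% of all genes rose and 22.5% fell. Myh11 rose by 0.61 ± 0.16 (1.52-fold, adjusted p = 0.0136), Des by 0.60 ± 0.09 (adjusted p = 0.000522) and Actg2 by 0.58 ± 0.08 (adjusted p = 0.000321). Each was higher at day 24 in 4 of 4 arrays matched by treatment, as were Mylk, Cnn1 and Tagln, the last by as little as 0.007. The share of all genes higher in 4 of 4 was not counted. Mylk rose by 0.37 ± 0.09 (adjusted p = 0.01), Cnn1 by 0.31 ± 0.10 (adjusted p = 0.0361) and Tagln by 0.20 ± 0.07 (adjusted p = 0.0496). Acta2 (0.15 ± 0.07), Lmod1 (0.14 ± 0.12), Myl9 (0.08 ± 0.08) and Smtn (0.15 ± 0.13) did not pass. Markers of other cells moved in the same interval: 13 of 15 skeletal muscle genes rose (median 1.18), 6 of 7 epithelial genes rose (median 0.46) and 5 of 7 macrophage genes fell (median -0.83). Des is also a gene of skeletal muscle, and the part of these cells in the rises was not tested.

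The 2 smallest of these rises depended on single arrays. Cnn1 no longer passed without the day 17 KGF (0.26, adjusted p = 0.109), day 17 DCI (0.31, adjusted p = 0.0862), day 17 KGF with DCI (0.33, adjusted p = 0.0683), day 24 control (0.32, adjusted p = 0.0817), day 24 KGF (0.30, adjusted p = 0.0786) or day 24 DCI array (0.25, adjusted p = 0.125). Tagln passed only when the day 17 control, day 17 KGF or day 24 KGF array was the one left out, and without the others it stood between 0.13 (day 17 KGF with DCI) and 0.23 (day 24 control). On the 6 arrays without DCI Tagln stood at 0.04 (adjusted p = 0.758). Acta2 passed without the day 17 KGF array (0.25, adjusted p = 0.00253) and Myl9 without the day 24 array with both treatments (0.18, adjusted p = 0.0383). On the 6 arrays without DCI Smtn passed too (0.47, adjusted p = 0.0467), while Myh11 (0.73, adjusted p = 0.0781) and Cnn1 (0.34, adjusted p = 0.165) did not.

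**Figure D2:**
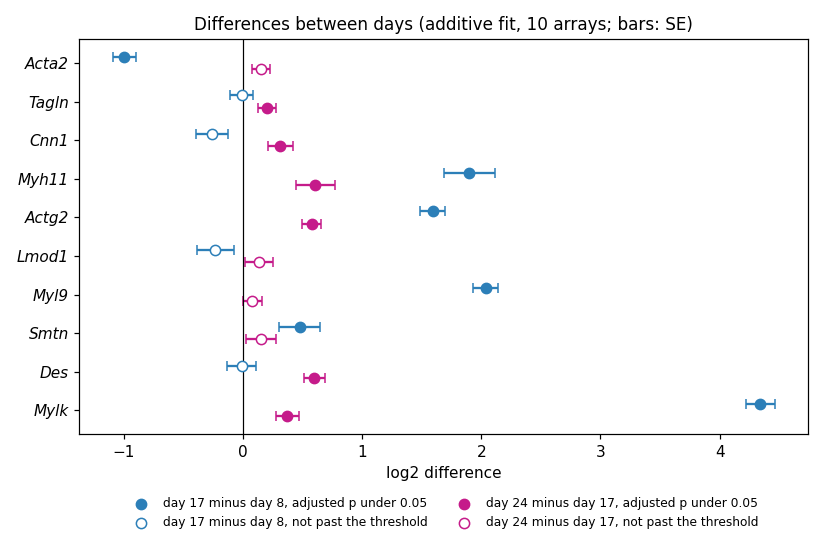
Fitted log2 differences between days for each gene, with bars of 1 SE; filled points passed an adjusted p of 0.05 and open points did not. Mylk, Myl9, Myh11 and Actg2 lie between 1.59 and 4.34 for day 17 minus day 8, Acta2 at -0.996, and the differences of day 24 minus day 17 lie between 0.08 and 0.61.

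Of the 10 genes 6 had 1 probe set, Acta2 and Mylk had 3, and Myh11 and Des had 2. For Mylk a further probe set gave a rise to day 17 of 4.38 ± 0.15, and the dimmest gave 0.84 ± 0.18 (adjusted p = 0.00418). For Acta2 the others gave -2.03 ± 0.29 (adjusted p = 0.000242) and -0.41 ± 0.15 (adjusted p = 0.0618), of which the former passed as a fall. For Myh11 the other probe set read between 3.56 and 4.15 on all arrays and gave -0.04 ± 0.15 (adjusted p = 0.878), so the Myh11 rise rests on 1 of its 2 probe sets. For Des the other read between 3.27 and 4.14 and gave 0.40 ± 0.13 from day 17 to day 24 (adjusted p = 0.0356). In that interval the dim Myh11 probe set gave 0.106 ± 0.115 (adjusted p = 0.524) and did not pass. The dimmest Mylk probe set did not pass either (0.23 ± 0.14, adjusted p = 0.228), while the further one did (0.64 ± 0.12, adjusted p = 0.00215). For Acta2 the dimmest probe set passed as a rise there (0.375 ± 0.116, adjusted p = 0.0323), unlike the reported one. The remaining Acta2 probe set did not pass (0.083 ± 0.216, adjusted p = 0.807).

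**Figure D3:**
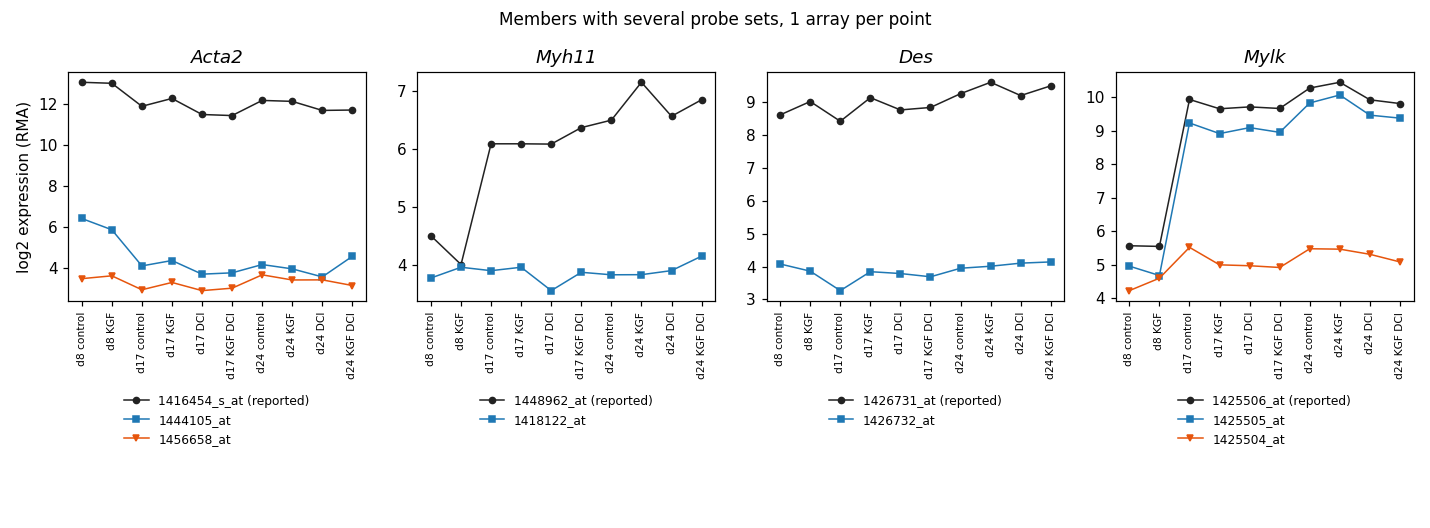
Log2 expression on each of the 10 arrays for the probe sets of the 4 genes that have several, with the reported probe set in black. The pair of bright Mylk probe sets step up between day 8 and day 17, while the dim Myh11 probe set stays between 3.56 and 4.15.

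With DCI 3 of the 10 genes fell and none rose, where 8.09% of all genes fell and 7.27% rose: Tagln, Lmod1 and Acta2. Over days 17 and 24, the 4 arrays with DCI lay below the 4 without for these 3 genes, as they did for 5.65% of all genes. For Tagln they read 10.48 to 10.95 against 11.42 to 11.50, and the fitted difference was -0.71 ± 0.07 (1.64-fold lower, adjusted p = 0.000103). For Lmod1 they read 5.32 to 5.91 against 6.32 to 6.42, with a difference of -0.71 ± 0.12 (1.64-fold lower, adjusted p = 0.00247). For Acta2 they read 11.43 to 11.70 against 11.88 to 12.26, with a difference of -0.54 ± 0.07 (1.45-fold lower, adjusted p = 0.000754). As these arrays do not overlap, each gene was necessarily lower in 4 of 4 pairs of arrays matched by day and KGF. Each passed when any 1 of the 10 arrays was left out, though day 8 had no array with DCI. The other Acta2 probe sets, both dim, gave -0.25 ± 0.22 and -0.21 ± 0.12 and did not pass, and with the mean of the 3 probe sets Acta2 stood at -0.33, adjusted p = 0.0604. A share of signal from another actin cannot be told apart here either. Acta1 (-0.85) and Actb (-0.22) also fell with DCI, while Actc1 (0.08) and Actg1 (-0.08) did not pass.

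The remaining 7 genes did not pass for DCI. Mylk stood at -0.30 ± 0.09 (adjusted p = 0.055) and Actg2 at -0.22 ± 0.08 (adjusted p = 0.0905), each with an unadjusted confidence interval below 0 (-0.51 to -0.09 and -0.40 to -0.05). Mylk passed when the day 17 KGF array was left out (-0.40, adjusted p = 0.0107). Cnn1 stood at -0.16 ± 0.10 and was lower in 4 of 4 pairs, a share that was not counted over all genes. Myl9, Des, Smtn and Myh11 lay within 0.03 of 0, and the 95% confidence intervals were -0.20 to 0.15 for Myl9, -0.23 to 0.17 for Des, -0.28 to 0.29 for Smtn and -0.35 to 0.37 for Myh11. The median DCI difference of the 10 genes was -0.19, beside -0.01 over all genes.

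Fitted for each day on the 8 arrays of days 17 and 24, the fall with DCI was -0.87 ± 0.07 at day 17 and -0.55 ± 0.07 at day 24 for Tagln, -0.82 ± 0.17 and -0.61 ± 0.17 for Lmod1, and -0.62 ± 0.10 and -0.45 ± 0.10 for Acta2. All 3 passed on both days. At day 17 they were the 3 of 10 that fell, where 4.01% of all genes fell and 5.63% rose, and none of the 10 rose. Smtn stood at 0.325 ± 0.10 there (adjusted p = 0.0774). With the lowest 40% of genes left out, or with the mean of probe sets, Smtn passed as a rise at day 17 (adjusted p = 0.0475 in each). Under the same alternatives it passed as a fall at day 24 (adjusted p = 0.0347 and 0.0353). At day 24 Mylk fell too (-0.49 ± 0.09, adjusted p = 0.00479), which made 4 of 10 that fell and none that rose, where 11.4% of all genes fell and 7.99% rose. Mylk at day 17 stood at -0.11 ± 0.09, and its difference between the days did not pass (-0.39 ± 0.13, adjusted p = 0.188).

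Within a day the calls rested on few arrays, and for Acta2 on 1 of 3 probe sets. The other Acta2 probe sets stood at -0.50 and -0.16 at day 17 and at 0.006 and -0.26 at day 24, and did not pass. With the mean of probe sets Acta2 was lost on both days (adjusted p = 0.101 and 0.294). Without a mean trend Acta2 and Lmod1 were lost at day 24 (adjusted p = 0.064 and 0.0528). At day 17 Lmod1 was lost without the KGF array (-0.79, adjusted p = 0.0758) or the array with both treatments (-0.59, adjusted p = 0.161), and Acta2 without the latter (-0.53, adjusted p = 0.05 after rounding), which left Tagln as the 1 gene that passed. At day 24 Acta2 was lost without the control (-0.37, adjusted p = 0.0861) or the array with both treatments (-0.42, adjusted p = 0.0852). Lmod1 was lost there without the control (-0.57, adjusted p = 0.161), KGF (-0.64, adjusted p = 0.121) or DCI array (-0.37, adjusted p = 0.255). Mylk was lost without the KGF array (-0.34, adjusted p = 0.0593) or the array with both treatments (-0.46, adjusted p = 0.0538), and Myl9 passed as a fall without the DCI array (-0.31, adjusted p = 0.0444). Tagln passed on both days whichever array was left out.

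In the fit stated for it, no member passed the test of whether the DCI difference changed between the days, where 2.51% of all genes did. Without adjustment 2912 genes had a p under 0.05, 3 of them members (Mylk, Smtn and Tagln). Smtn stood at -0.63 ± 0.14 (adjusted p = 0.0504), and passed when matched arrays were taken as a block (adjusted p = 0.0332). Its arrays with DCI read above those without at day 17 (7.31 and 7.31 against 6.98 and 6.995) and below them at day 24 (7.11 and 7.18 against 7.38 and 7.53). Acta2 passed without the day 17 control array (0.37, adjusted p = 0.0482).

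**Figure D4:**
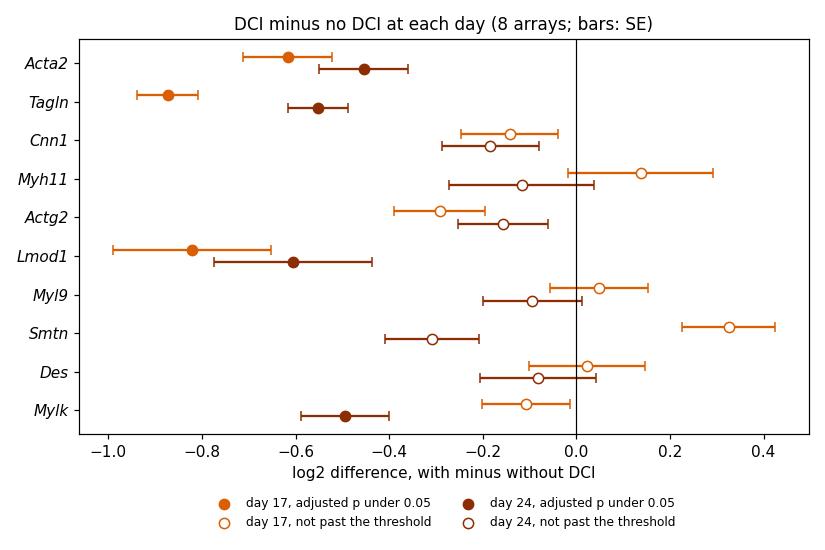
Fitted log2 difference of cultures with DCI minus those without, at day 17 and at day 24, for each gene, with bars of 1 SE; filled points passed an adjusted p of 0.05 and open points did not. Tagln, Lmod1 and Acta2 lie between -0.87 and -0.45 on both days, Mylk at -0.49 at day 24, and Smtn on opposite sides of 0.

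KGF changed none of the 10 genes in limma, where 0.00550% of all genes passed. Without adjustment 1466 genes had a p under 0.05, and 2 were members, Des and Cnn1. Des stood at 0.37 ± 0.08 (adjusted p = 0.224), higher with KGF in 5 of 5 matched pairs by 0.07 to 0.72, the largest at day 17 without DCI. The share of all genes higher in 5 of 5 was not counted. Skeletal muscle genes also read higher on that day 17 KGF array, with a list mean of 9.09 against 7.30 on the day 17 control, and their part in the Des value was not tested. The other, dim Des probe set stood at 0.07 ± 0.11 for KGF. Cnn1 stood at 0.21 ± 0.09 (adjusted p = 0.607), with its largest difference, 0.62, at day 8. The other 8 genes lay between -0.07 (Lmod1) and 0.15 (Myh11). For KGF by day and KGF by DCI 0.00% of all genes and no member passed. Without adjustment 932 and 267 genes had a p under 0.05, with 0 members for the former and 1, Actg2, for the latter (-0.30 ± 0.12, adjusted p = 1).

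The cultures with both treatments can be set against the control of the same day only as single arrays, with no replicate check. The differences at day 17 and day 24 were -1.02 and -0.51 for Lmod1, -0.95 and -0.55 for Tagln, and -0.45 and -0.47 for Acta2. Des read 0.42 and 0.24 higher and Myh11 0.28 and 0.35 higher.

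The 10 genes did not share 1 pattern. Over the 10 arrays, which share their days and treatments, Pearson's r was 0.99 between Myl9 and Mylk and 0.97 between Myh11 and Actg2, and -0.70 between Acta2 and Actg2. After the day means were taken out of the 8 arrays of days 17 and 24, r was 0.97 between Tagln and Lmod1, 0.94 between Acta2 and Tagln, and 0.89 between Acta2 and Actg2, but 0.29 between Myl9 and Mylk. These are descriptions of 10 and 8 arrays. With the mean of the 10 standardised profiles, the most like other genes were Gpr176 (r = 0.98), Paqr7 (0.96), Wfdc17 (0.95), Ptgds (0.95) and Ccn2 (0.95) over the 10 arrays. They were Mgmt (0.99), Nme7 (0.98) and Numa1 (0.98) over the 8 with day means out. Acta2 itself stood at -0.19 against that mean over the 10 arrays.

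Of the regulators, Myocd, which encodes myocardin, read 7.62 and 7.46 at day 8, 6.15, 5.45, 6.69 and 6.49 at day 17, and 4.803, 4.87, 5.23 and 4.84 at day 24. It was highest at day 8 and lowest at day 24, and fell by 1.59 to day 17 (adjusted p = 9.52e-05) and by a further 1.26 to day 24 (adjusted p = 0.00014). With DCI it stood at 0.49 ± 0.15 and did not pass (adjusted p = 0.0554). Without the day 8 control array the fall of Myocd to day 17 was -1.66. Its other probe set read between 3.96 and 4.61 on all arrays. That set did not pass to day 17 (-0.345 ± 0.147, adjusted p = 0.0962) or from day 17 to day 24 (0.14 ± 0.11, adjusted p = 0.375). Both falls of Myocd thus rest on the brighter probe set alone. Srf fell by 0.40 from day 8 to day 17 (adjusted p = 0.0317), a call lost without the day 8 control array (-0.30 ± 0.18, adjusted p = 0.242), and stood at -0.24 ± 0.10 with DCI (adjusted p = 0.143). The other, dimmer Srf probe set did not pass to day 17 (-0.265 ± 0.125, adjusted p = 0.129) or with DCI (-0.052 ± 0.094). Of the myocardin-related factors, Mrtfb fell by 0.27 with DCI (adjusted p = 0.0148) and by 0.72 from day 8 to day 17, and Mrtfa stood at 0.13 ± 0.12 with DCI (adjusted p = 0.564). Without the day 8 control array the latter Mrtfb difference was -0.68. The other Mrtfb probe sets, both dimmer, stood at 0.03 ± 0.10 and 0.06 ± 0.13 with DCI and did not pass, so the fall with DCI rests on 1 of 3 probe sets.

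Among the wider lists for DCI, 10 of 39 actin cytoskeleton partners fell and 3 rose, with a median of -0.08. The largest falls were in Itga8, an integrin subunit of smooth muscle and other mesenchyme (-1.01 ± 0.22), and Vcl, which encodes the adhesion protein vinculin (-0.49 ± 0.06). Csrp2, a LIM-domain protein of smooth muscle, rose by 0.68 and Hspb6, a small heat shock protein that binds actin partners in relaxing muscle, by 0.50. Of 26 contraction signalling genes 4 fell and 2 rose, with a median of -0.08. They included the endothelin receptor Ednrb (-1.19 ± 0.10), the non-muscle myosin heavy chain Myh10 (-0.90 ± 0.13), Gucy1a1, a subunit of the nitric oxide receptor (-0.77 ± 0.22), and Rgs2, a brake on G protein signals for contraction (0.94 ± 0.21). These averages hid differences between the days. At day 17 the list had 2 that rose and 2 that fell, where 5.63% of all genes rose and 4.01% fell. At day 24 it had 1 that rose and 8 that fell, where 7.99% of all genes rose and 11.4% fell. Gucy1a1 stood at -0.15 ± 0.15 at day 17 and -1.40 ± 0.15 at day 24, and this change between days passed (adjusted p = 0.014). So did those of Rgs2 (0.32 ± 0.08 and 1.57 ± 0.08, adjusted p = 0.000862) and Myh10 (-0.56 ± 0.09 and -1.25 ± 0.09, adjusted p = 0.0213). Of 25 SRF cofactors and upstream genes 3 fell and 4 rose, with a median of 0.05, Mef2c lowest (-1.23 ± 0.14) and Tgfb2 highest (0.78 ± 0.10). Of the 10 immediate early genes, many of them SRF targets, 1 fell (Egr2) and 1 rose (Nr4a1), with a median of -0.04. Of the other actins Acta1 fell by 0.85 and Actb by 0.22, while Actc1 (0.08 ± 0.10) and Actg1 (-0.08 ± 0.04) did not pass.

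Markers of other cells moved with DCI beside these falls, and their part in them was not tested. All 7 measured macrophage genes fell, with a median of -3.01 and a mean level of 6.01 to 7.32 on the DCI arrays of days 17 and 24 against 9.11 to 9.62 on those without. Of 7 epithelial genes 5 rose and 1 fell (10.34 to 10.97 against 10.08 to 10.66). Of 14 fibroblast genes 4 rose and 2 fell (10.82 to 10.91 against 10.76 to 10.98), and of 8 pericyte genes 1 rose (7.56 to 7.82 against 7.67 to 7.80). At day 24 alone 2 pericyte genes, Rgs5 and Mcam, fell with DCI and 1, Kcnj8, rose, where at day 17 none passed. Over all genes 4.01% fell and 5.63% rose at day 17, and 11.4% fell and 7.99% rose at day 24. Rgs5, a marker of pericytes and other mural cells, read 7.27 and 6.86 with DCI at day 24 against 8.44 and 8.49 without, and its difference changed between the days by -1.52 ± 0.16 (adjusted p = 0.00142). Kcnj8 went the other way at day 24, at 9.66 and 9.695 with DCI against 8.57 and 8.85 without. Of 15 cardiac genes 1 rose and 3 fell (8.40 to 8.67 against 8.54 to 8.87), and of 15 skeletal muscle genes 2 fell (7.56 to 9.34 against 7.30 to 9.46). From day 8 to day 17 the skeletal muscle list rose in 13 of 15 genes with a median of 2.60, the fibroblast list in 10 of 14 and the macrophage list in 7 of 7. The part of these cells in the rises of Mylk, Myl9, Myh11 and Actg2 was not tested. None of these markers was at 0, since RMA values have no true zero. Of the 6 measured housekeeping genes 1 (B2m) fell with DCI.

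**Figure D5:**
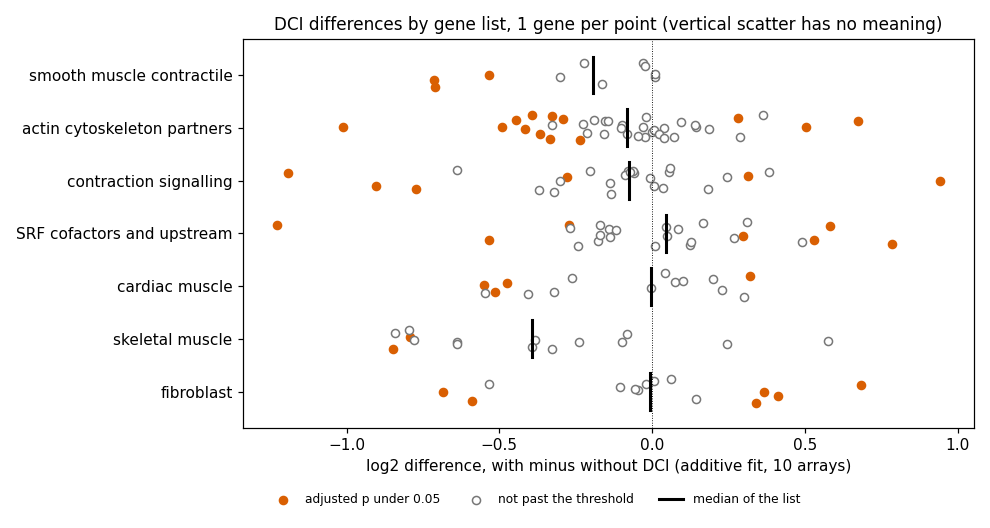
Log2 difference with minus without DCI for each gene of 7 lists, with orange points for an adjusted p under 0.05, open points for the rest and a black line at each list's median. The medians are -0.19 for the smooth muscle contractile genes, -0.08 for the actin cytoskeleton partners, -0.39 for skeletal muscle and -0.01 for fibroblast genes.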

How the data were processed

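RNA of 10 cultures, 1 per condition, was hybridised to Affymetrix arrays. Per the submitters' processing notes the values come from RMA, and the deposited table holds 45101 probe sets on a log2 scale. The version of RMA, and whether it was run on all arrays at once, are not stated there. Quantile normalisation removes a shift common to most genes.

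The platform annotation named the probe sets: 34945 had 1 symbol, 932 several, 9160 none, and 64 were controls. Each of 18193 genes took its brightest probe set, with no filter. Differences were fitted with limma 3.58.1 (R 4.3.3; eBayes with a mean trend) across all genes with day, KGF and DCI as additive terms over 10 arrays (5 residual degrees of freedom). Interactions and within-day DCI differences used the 8 arrays of days 17 and 24 (3 residual degrees of freedom). P-values measure only the spread between these arrays, and their number limits the precision. The fits were tested on data simulated with independent noise around additive effects and known differences, which leaves effects of a single culture or array untested. Members, lists and tests were chosen with earlier results of these data known. The rule for named genes took all members, and of each list at most the 4 called genes with the largest DCI difference, plus fixed regulators and actins. Pou5f1, Nanog, Tnnt2, Myog, Rgs5 and Mcam were added after their values were seen. Alternatives were other variance priors, a filter of the lowest 40% of genes, the mean of probe sets, a repeated quantile normalisation, other thresholds, subsets of arrays, leaving out each array and, chosen after seeing the data, matched arrays as a block. Figures used matplotlib 3.10.9.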

Additional observations from a re-analysis of the deposited data

Results flagged for a closer look

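The DCI difference of Smtn, the smoothelin gene, lay on opposite sides of 0 on the 2 days: 0.33 without KGF and 0.32 with it at day 17, and -0.27 and -0.35 at day 24. The interaction was -0.63 on the log2 scale, and it missed the threshold in limma (adjusted p = 0.0504). It passed with a robust prior, with the dimmest genes left out, with the mean of probe sets and with matched arrays as a block (adjusted p of 0.0332 to 0.0432), and over all alternatives in which it was fitted the adjusted p ran from 0.0332 to 0.237.

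On days 17 and 24 the KGF difference of Actg2, the visceral smooth muscle actin gene, was above 0 without DCI (0.19 and 0.17). It was below 0 with DCI (-0.13 and -0.11). At day 8, which the interaction fit leaves out, it was below 0 without DCI too (-0.17). The interaction of -0.30 did not pass (adjusted p = 1).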

How the results depend on the processing

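With 1 array per condition, every call rests on a model that leaves out some interactions. Of 420 alternative values of the 22 member differences that passed, 2 changed sign, both from other probe sets. The flat Myh11 probe set gave -0.04 for day 8 to day 17, and 1 dim Acta2 probe set gave 0.006 for DCI at day 24. A further 78 kept their sign but no longer passed. Other thresholds, variance priors and the filter keep the fitted difference, so those alternatives could not change its sign. A 2-fold size in addition left 0 of the 3 DCI calls, 0 of the 6 from day 17 to day 24, and 0 of the 3 and 4 for DCI at day 17 and day 24. At an adjusted p under 0.10 there were 5 DCI calls. For DCI by day the count of 0 became 1 (Smtn) at an adjusted p under 0.10, with a robust prior, with the lowest 40% of genes left out and with the mean of probe sets. Without a mean trend DCI at day 24 had 2 calls. Leaving out 1 array gave 3 to 4 DCI calls, 0 to 1 for DCI by day, 1 to 3 for DCI at day 17 and 2 to 4 for DCI at day 24; Acta2 was the call added for DCI by day. Mylk passed for DCI with a robust prior, with the lowest 40% of genes left out and after a repeated quantile normalisation (adjusted p = 0.0487, 0.0464 and 0.0382). The KGF count was 0 under each alternative. A repeated quantile normalisation moved the median of all genes for day 8 to day 17 from -0.02 to -0.12 and the share of higher calls from 50.4% to 40.4%. Under it Smtn was lost there (0.29, adjusted p = 0.163) and Lmod1 passed as a fall (-0.45, adjusted p = 0.0487). Over all genes the DCI calls numbered 2793, and 1638 without the day 24 control or 1821 without the day 24 DCI array. For DCI by day there were 456, and 138 without a mean trend, 223 with the mean of probe sets and 143 at the least with 1 array left out. For DCI at day 17 there were 1754 (1061 without a mean trend, 697 without the DCI array) and at day 24 3523 (2090 without the KGF array). For KGF there was 1 call, and 65 without either day 8 array. From day 17 to day 24 there were 6778, and 3366 on the arrays without DCI. A 2-fold size in addition cut these to 432 (DCI), 230, 419, 646 and 734, and the 7713 from day 8 to day 17 to 2355; at an adjusted p under 0.10 KGF had 13 and DCI by day 814. The labels give no replicate numbers. With arrays matched by day and the other treatment as a block, an alternative chosen after seeing the data, the DCI calls were the same 3 genes, DCI by day had 1 call (Smtn, adjusted p = 0.0332) and Smtn passed for DCI at day 24 (adjusted p = 0.0469). Under it Smtn was lost from day 8 to day 17 (adjusted p = 0.0601) and Tagln from day 17 to day 24 (adjusted p = 0.0682); over all genes KGF had 10 calls and DCI by day 767.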
